A study of Arabidopsis thaliana with 30 samples.

Results

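The 42 genes described here encode the enzymes of phenylpropanoid, flavonoid and anthocyanin synthesis in Arabidopsis thaliana and the transcription factors that control these enzymes. They were chosen by known function as a list of gene identifiers, with earlier results of these data known. All 42 were present among the 33602 genes of the deposited count tables. By role they comprised 9 genes of the core pathway, 7 of lignin and sinapate synthesis, 5 early flavonoid genes, 2 of flavonol synthesis, 7 of anthocyanin and proanthocyanidin synthesis, and 12 regulators. The core genes were PAL1 (AT2G37040), PAL2 (AT3G53260), PAL3 (AT5G04230), PAL4 (AT3G10340), C4H (AT2G30490), 4CL1 (AT1G51680), 4CL2 (AT3G21240), 4CL3 (AT1G65060) and 4CL5 (AT3G21230). The lignin and sinapate genes were FAH1 (AT4G36220), HCT (AT5G48930), CCR1 (AT1G15950), CCoAOMT1 (AT4G34050), COMT1 (AT5G54160), SNG1 (AT2G22990) and UGT84A1 (AT4G15480). The early flavonoid genes were CHS (AT5G13930), CHI (AT3G55120), CHIL (AT5G05270), F3H (AT3G51240) and F3'H (AT5G07990), and the flavonol genes FLS1 (AT5G08640) and UGT78D1 (AT1G30530). The anthocyanin group was made up of DFR (AT5G42800), LDOX (AT4G22880), UGT78D2 (AT5G17050), UGT79B1 (AT5G54060), UGT75C1 (AT4G14090), TT19 (AT5G17220) and ANR (AT1G61720). The regulators were MYB12 (AT2G47460), MYB11 (AT3G62610), MYB111 (AT5G49330), PAP1 (AT1G56650), PAP2 (AT1G66390), TT8 (AT4G09820), GL3 (AT5G41315), EGL3 (AT1G63650), TTG1 (AT5G24520), MYBL2 (AT1G71030), CPC (AT2G46410) and MYB4 (AT4G38620).

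The core pathway turns phenylalanine into coumaroyl-CoA through phenylalanine ammonia-lyase (PAL), cinnamate hydroxylase (C4H) and coumarate-CoA ligase (4CL). From there 1 branch leads to lignin and to sinapate esters, the ultraviolet screens of Arabidopsis leaves, and another enters flavonoid synthesis at chalcone synthase (CHS) and ends in flavonols, anthocyanins and proanthocyanidins. R2R3-MYB proteins, with bHLH partners and the WD40 protein TTG1 in the case of the late anthocyanin genes, drive transcription of the pathway, and light is a known inducer of it in young seedlings.

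Transcripts were measured by mRNA sequencing of whole seedlings of the ecotype Col-0, in 2 genotypes. The bdr1,2,3 triple mutant carried T-DNA insertions in BDR1, BDR2 and BDR3 (alleles bdr1-1, bdr2-1 and bdr3-1), which encode proteins related to negative transcription elongation factors, and it was compared with the wild type. For photomorphogenesis, seedlings of both genotypes were 5 days old, had grown in darkness at 21 °C, and were either kept dark (DARK) or moved to white light, where they stayed 2 or 4 h. For heat shock, seedlings of both genotypes were 12 days old and had grown at 12 °C under long days of 16 h light and 8 h dark, and were either moved to 27 °C for 4 h (HEAT) or left at 12 °C (COLD). Each of the 10 groups had 3 libraries. The labels describe 3 plates for each treatment and do not say whether the libraries came from separate growths, so p-values measure the spread between these libraries, which may be technical. In whole seedlings, fewer cells of a type and less RNA per cell cannot be told apart.

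Depth lay between 7517174 and 22888978 counts a library for photomorphogenesis, and between 6823975 and 22458726 for heat shock. Levels are given as CPM, counts scaled to a common library size, in the order of replicates 1, 2 and 3, and differences as log2 fold changes with their standard error (SE) from edgeR's quasi-likelihood test. A gene was called higher or lower at a Benjamini-Hochberg adjusted p under 0.05 over all genes tested, 19521 for photomorphogenesis and 19473 for heat shock. BDR1 was at 1.66 to 3.65 CPM in bdr1,2,3, against 51.7 to 112 CPM in the wild type. BDR2 was also lower in every bdr1,2,3 library than in any wild-type library of the same condition, and so was BDR3 except in COLD, where it overlapped (5.34 to 5.85 CPM in bdr1,2,3 and 5.03 to 6.32 CPM in the wild type). On the first principal component of the heat shock experiment, the HEAT libraries numbered 1 stood apart in both genotypes (score 39.8 against 31.6 for both others in bdr1,2,3, and 34.2 against 24.3 and 22.8 in the wild type). Calls that rest on them are given with and without them, and fold changes with them only. All 3 leaf markers were detected in every group, and their summed level was 5615 to 6332 CPM in bdr1,2,3 and 6974 to 8292 CPM in the wild type after 2 h of light, and 8877 to 10680 CPM in bdr1,2,3 and 11380 to 12270 CPM in the wild type after 4 h. Their part in the genotype differences was not tested. Of the 5 seed coat markers, TT2, TT12 and ANR had 3 counts or fewer in every library. TT10 had at most 6 counts, and AHA10 was detected in every library, at 13 to 121 counts.

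Of the 42 genes, 38 passed the filter on low counts in each experiment. ANR, the anthocyanidin reductase of seed coat tannin synthesis, and the regulators MYB11 and PAP2 were left untested in both. TT8, the bHLH partner of late flavonoid regulation, was untested in the photomorphogenesis experiment only, and UGT84A1, a sinapate glucosyltransferase, in the heat shock experiment only. Reads of overlapping genes on the opposite strand may be included in 10 members, since the strand setting of the counting was not stated (4CL1, 4CL5, CCR1, UGT84A1, CHS, F3H, UGT75C1, TT19, MYB11 and GL3), and their values are uncertain to that extent. The same holds for reads shared between copies: 11.3% of the 31-base words of PAP2, 7.83% of UGT79B1 and 6.72% of LDOX occurred elsewhere in the genome.

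The window from 250 bases before to 50 bases after each annotated start was searched on both strands for CACGTG, the core of the G-box that light-signalling bZIP factors bind, and for ACCTACC, for ACCAACC and for ACCTAAC, 3 forms of the element that R2R3-MYB proteins recognise. CACGTG was found in 10 of the 42 windows (23.8%) and in 7.7% of the windows of 27443 nuclear protein-coding genes. It was present in 4 of 5 early flavonoid genes (CHS, CHI, CHIL and F3H), in 3 of 7 anthocyanin genes (DFR, UGT79B1 and ANR), and in MYB12, PAP2 and PAL4, and in none of the lignin and sinapate genes. ACCAACC was found in 8 windows (19.0%, against 3.3% of all windows), ACCTACC in 3 (7.1% against 1.4%, in 4CL3, HCT and CCoAOMT1) and ACCTAAC in 1 (2.4% against 2.9%, in CHIL). A match describes the letters in the window, not a site in use. The 250 bases before the start are shown for 5 of the members whose transcripts were near absent in darkness and which hold CACGTG there. They were read from the TAIR10.1 genome with RefSeq's annotated starts: CHS (chr5:4488226-4488475, plus strand), CHIL (chr5:1563036-1563285, plus strand), F3H (chr3:19024942-19025191, plus strand), UGT79B1 (chr5:21938397-21938646, minus strand) and MYB12 (chr2:19476076-19476325, plus strand). Each is written 5′ to 3′ on the strand of its gene, with the searched motifs in capitals (GTTAGGT is ACCTAAC on the other strand).
CHS: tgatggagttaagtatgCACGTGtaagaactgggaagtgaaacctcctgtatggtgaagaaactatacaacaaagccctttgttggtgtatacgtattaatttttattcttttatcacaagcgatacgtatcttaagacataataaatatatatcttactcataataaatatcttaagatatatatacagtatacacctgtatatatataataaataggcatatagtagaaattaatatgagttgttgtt
CHIL: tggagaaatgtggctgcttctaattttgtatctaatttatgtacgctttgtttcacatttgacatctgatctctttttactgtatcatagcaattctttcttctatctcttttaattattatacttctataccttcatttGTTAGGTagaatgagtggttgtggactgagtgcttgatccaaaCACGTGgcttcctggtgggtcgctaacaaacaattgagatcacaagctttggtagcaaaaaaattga
F3H: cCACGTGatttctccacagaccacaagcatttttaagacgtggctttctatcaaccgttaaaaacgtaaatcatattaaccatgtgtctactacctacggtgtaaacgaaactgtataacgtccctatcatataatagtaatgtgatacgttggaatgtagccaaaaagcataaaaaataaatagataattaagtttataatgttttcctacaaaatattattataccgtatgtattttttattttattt
UGT79B1: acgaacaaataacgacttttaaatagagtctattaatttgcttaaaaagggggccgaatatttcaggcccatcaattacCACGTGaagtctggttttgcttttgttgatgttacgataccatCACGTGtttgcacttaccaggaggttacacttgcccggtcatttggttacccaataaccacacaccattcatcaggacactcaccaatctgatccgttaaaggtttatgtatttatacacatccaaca
MYB12: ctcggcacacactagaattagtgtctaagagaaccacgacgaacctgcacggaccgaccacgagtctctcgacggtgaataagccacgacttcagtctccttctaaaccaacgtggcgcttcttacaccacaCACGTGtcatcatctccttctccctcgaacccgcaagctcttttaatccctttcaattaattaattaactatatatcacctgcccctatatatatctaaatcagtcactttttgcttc
The position of CACGTG differed between them, at 233 bases before the start in CHS, 67 in CHIL, 249 in F3H, 171 and 128 in UGT79B1 and 118 in MYB12. DFR, PAP2 and ANR, also near absent in darkness, hold it 14, 46 and 108 bases before the start and are not shown. Of these, DFR did not pass the test after 2 h of light, and PAP2 and ANR were not tested.

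Members differed widely in level. Per kilobase of exon, SNG1, the sinapoyltransferase that makes sinapoylmalate, was the most abundant member in all 10 groups. It stood at 350 CPM per kb in bdr1,2,3 and 468 CPM per kb in the wild type in DARK, and the next member, CCoAOMT1, a methyltransferase of lignin synthesis, at 111 CPM per kb in bdr1,2,3 and 83.9 CPM per kb in the wild type. After 2 h of light COMT1, another methyltransferase of that branch, was second with 339 CPM per kb in bdr1,2,3 and 272 CPM per kb in the wild type. CHS held place 12 in bdr1,2,3 and place 9 in the wild type after 2 h of light, against places 24 and 25 in DARK, and F3H held place 8 in both genotypes, against places 27 in bdr1,2,3 and 23 in the wild type in DARK. Summed over all 42 genes, the level was 1839 to 2104 CPM in bdr1,2,3 and 1922 to 2016 CPM in the wild type in DARK, which overlapped. After 2 h it was 4789 to 5056 CPM in bdr1,2,3 and 4313 to 4580 CPM in the wild type. After 4 h it was 4370 to 4487 CPM in bdr1,2,3 and 3734 to 4008 CPM in the wild type, with no overlap at either time. Most of this level came from core, lignin and sinapate genes. At 2 h the core sum was higher in bdr1,2,3 (1326 to 1447 CPM, against 1029 to 1126 CPM in the wild type). Flavonol genes summed lower (22.76 to 24.39 CPM, against 30.54 to 30.96 CPM in the wild type). So did the regulators (140.7 to 154.8 CPM, against 158.5 to 170.9 CPM in the wild type). The other roles overlapped at 2 h. After 4 h only core and early flavonoid sums did not overlap, both higher in bdr1,2,3.

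The first question was how the pathway responded to light. Nearly all tested members rose in both genotypes. After 2 h, 32 of 38 were called higher and 2 lower in bdr1,2,3, where 33.9% and 33.8% of all genes tested were called higher and lower. In the wild type, 34 were higher and 1 was lower (33.9% and 32.9% of all genes). After 4 h the counts were 33 higher and 2 lower in bdr1,2,3 (35.9% and 34.1% of all genes) and 32 higher and 2 lower in the wild type (35.2% and 34.9%). The median log2 fold change of the tested members was 1.92 in bdr1,2,3 and 2.10 in the wild type after 2 h, and 1.85 in bdr1,2,3 and 1.58 in the wild type after 4 h, while that of all genes tested lay within 0.02 of 0. With members that were at 0 or near it in darkness set at their bound or counted ratio, the medians were 1.78 in bdr1,2,3 and 1.84 in the wild type after 2 h, and 1.85 in bdr1,2,3 and 1.39 in the wild type after 4 h. The comparisons at 2 and 4 h share their DARK libraries. MYB12, UGT84A1, FLS1, 4CL3, CHIL, PAP1, GL3 and the tested anthocyanin genes other than UGT78D2 passed the filter on low counts only through lit libraries. To be tested they had to be high in light, so their part in the numbers called higher is no support.

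**Figure D1:**
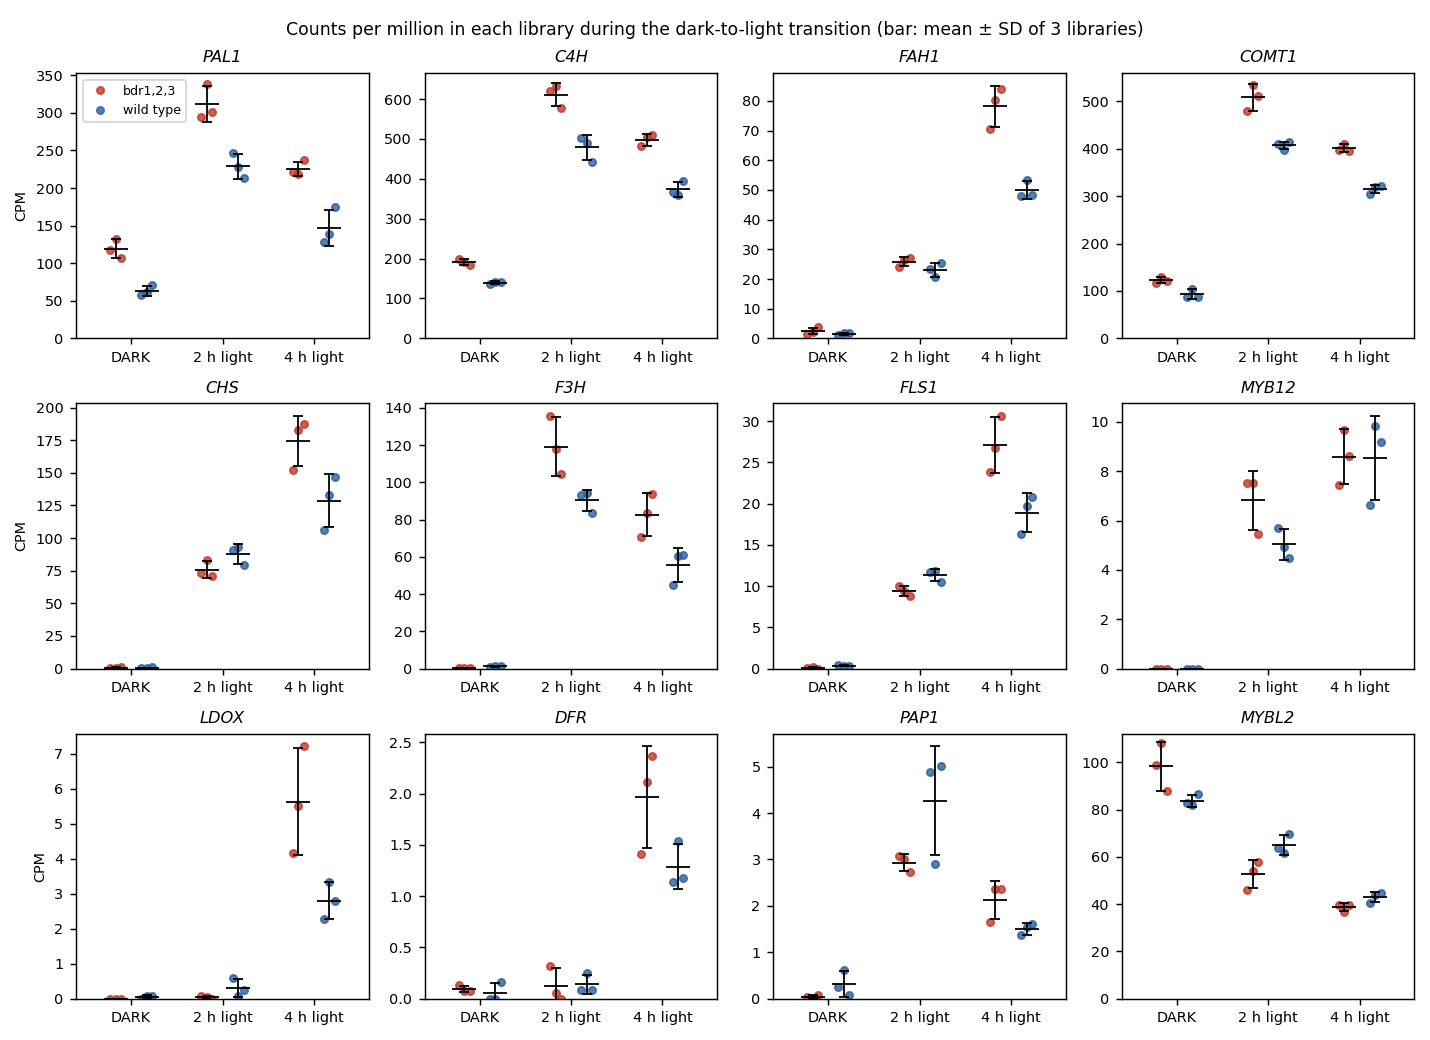
Level of 12 members in each library of the photomorphogenesis experiment, in CPM on linear axes that start at 0, for seedlings in DARK and after 2 and 4 h of light. Red points are bdr1,2,3 and blue points are wild-type libraries, and bars give the mean and SD of 3 libraries. CHS, F3H, FLS1 and MYB12 lay near 0 in darkness, LDOX and DFR were low until 4 h, PAL1, C4H and COMT1 peaked at 2 h, and MYBL2 was highest in darkness.

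All 9 core genes rose after 2 h in both genotypes. PAL1, the main ammonia-lyase of the pathway, had 118, 132 and 107 CPM in bdr1,2,3 and 58.2, 61.6 and 70.9 CPM in the wild type in DARK. After 2 h it had 294, 339 and 302 CPM in bdr1,2,3 and 246, 228 and 213 CPM in the wild type, and after 4 h 221, 219 and 237 CPM in bdr1,2,3 and 128, 139 and 174 CPM in the wild type. In both genotypes every lit library lay above every dark one, with the highest levels at 2 h. The log2 fold change after 2 h was 1.39 ± 0.10 in bdr1,2,3 and 1.84 ± 0.11 in the wild type (edgeR adjusted p 6.45e-11 in bdr1,2,3 and 1.18e-12 in the wild type). C4H, the second enzyme, rose by 1.68 ± 0.07 in bdr1,2,3 and 1.78 ± 0.07 in the wild type after 2 h, and stood 1.38 ± 0.07 in bdr1,2,3 and 1.42 ± 0.07 in the wild type above DARK after 4 h, where PAL1 stood 0.92 ± 0.10 in bdr1,2,3 and 1.20 ± 0.11 in the wild type above it. The core gene with the largest rise was 4CL3, the ligase isoform associated with flavonoid synthesis, which had 0.481, 0.305 and 0.396 CPM in bdr1,2,3 and 0.132, 0.539 and 0.167 CPM in the wild type in DARK and 14.7, 16.4 and 17.8 CPM in bdr1,2,3 and 12.3, 14.2 and 14.6 CPM in the wild type after 4 h. Its log2 fold change was 5.28 ± 0.21 in bdr1,2,3 and 5.50 ± 0.26 in the wild type, and at 2 h 4.44 ± 0.22 in bdr1,2,3 and 5.39 ± 0.26 in the wild type. After 4 h, 7 core genes remained above their dark level in bdr1,2,3 and 6 in the wild type. 4CL2 and 4CL5 did not pass the test in either genotype at 4 h (log2 fold changes from 0.03 to 0.49), nor did PAL3 in the wild type (0.27 ± 0.17, adjusted p 0.173).

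All 7 lignin and sinapate genes rose at both times in both genotypes. FAH1, the ferulate hydroxylase that leads to syringyl lignin and sinapate, rose throughout the 4 h. It had 1.57, 2.14 and 3.72 CPM in bdr1,2,3 and 1.18, 1.80 and 1.84 CPM in the wild type in DARK, 24.1, 26.3 and 27.0 CPM in bdr1,2,3 and 23.3, 20.7 and 25.3 CPM in the wild type after 2 h and 70.6, 80.2 and 83.9 CPM in bdr1,2,3 and 48.0, 53.5 and 48.4 CPM in the wild type after 4 h. The groups of the 3 times did not overlap within either genotype, and the log2 fold change was 3.47 ± 0.17 in bdr1,2,3 and 3.79 ± 0.20 in the wild type after 2 h. After 4 h it was 5.07 ± 0.16 in bdr1,2,3 and 4.91 ± 0.19 in the wild type (edgeR adjusted p 2.75e-17 in bdr1,2,3 and 8.91e-16 in the wild type). COMT1 rose by 2.06 ± 0.07 in bdr1,2,3 and 2.12 ± 0.07 in the wild type after 2 h. UGT84A1 had 1 count in the 3 dark bdr1,2,3 libraries together and 0 in the dark wild-type libraries. After 2 h it had 7.18, 5.51 and 4.53 CPM in bdr1,2,3 and 3.31, 3.75 and 3.19 CPM in the wild type, a ratio to darkness of 279.9 (exact 95% interval 49.7 to 11100.0, from 236 and 1 counts) in bdr1,2,3 and at least 8.65-fold higher in the wild type. That bound sets 3 counts in the shallowest dark library against the light level, and intervals and bounds cover counting error only. SNG1 had 753, 784 and 662 CPM in bdr1,2,3 and 1011, 930.2 and 999.6 CPM in the wild type in DARK and 1756, 1790.0 and 1849.7 CPM in bdr1,2,3 and 1587, 1861 and 1834 CPM in the wild type after 2 h, a log2 fold change of 1.29 ± 0.08 in bdr1,2,3 and 0.84 ± 0.08 in the wild type. After 4 h it was 1.20 ± 0.08 in bdr1,2,3 and 0.87 ± 0.08 in the wild type.

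Of the 5 early flavonoid genes, 4 rose steeply and 1 fell. CHS, the entry enzyme of flavonoid synthesis, had 0.350, 0.0763 and 1.11 CPM in bdr1,2,3 and 0.395, 0.449 and 0.834 CPM in the wild type in DARK. After 2 h it had 73.4, 83.0 and 70.9 CPM in bdr1,2,3 and 90.9, 93.5 and 79.1 CPM in the wild type, and after 4 h 152, 183 and 188 CPM in bdr1,2,3 and 106, 133 and 147 CPM in the wild type. No light library came near the dark ones, and the level at 4 h was above that at 2 h in every library of both genotypes. The log2 fold change was 7.29 ± 0.28 in bdr1,2,3 and 7.21 ± 0.30 in the wild type after 2 h, and 8.49 ± 0.27 in bdr1,2,3 and 7.75 ± 0.29 in the wild type after 4 h (edgeR adjusted p 9.63e-14 in bdr1,2,3 and 8.25e-13 in the wild type at 4 h). F3H, flavanone 3-hydroxylase, had 0.481, 0.153 and 0.237 CPM in bdr1,2,3 and 0.922, 1.44 and 1.34 CPM in the wild type in DARK, 136, 118 and 104 CPM in bdr1,2,3 and 93.0, 94.3 and 83.7 CPM in the wild type after 2 h and 70.6, 83.5 and 93.7 CPM in bdr1,2,3 and 44.9, 60.3 and 61.1 CPM in the wild type after 4 h. Unlike CHS it peaked at 2 h, with a log2 fold change of 8.46 ± 0.24 in bdr1,2,3 and 6.14 ± 0.22 in the wild type, and of 7.93 ± 0.25 in bdr1,2,3 and 5.44 ± 0.23 in the wild type after 4 h. These rest on 16 counts in the dark bdr1,2,3 libraries together and 39 in the dark wild-type libraries. CHI, chalcone isomerase, rose by 4.16 ± 0.18 in bdr1,2,3 and 3.68 ± 0.20 in the wild type after 2 h. CHIL, its non-catalytic relative that improves the yield of chalcone synthase, rose by 5.70 ± 0.39 in bdr1,2,3 and 5.82 ± 0.39 in the wild type. The exception was F3'H, flavonoid 3'-hydroxylase, which fell after 2 h in bdr1,2,3 by 0.65 on the log2 scale (SE 0.16, adjusted p 0.00119) and did not pass the test in the wild type (-0.34 ± 0.17, adjusted p 0.094). After 4 h it was lower in both (-0.70 ± 0.17 in bdr1,2,3 and -0.61 ± 0.18 in the wild type).

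Both flavonol genes rose. FLS1, flavonol synthase, had 0.0874, 0.229 and 0 CPM in bdr1,2,3 and 0.395, 0.270 and 0.334 CPM in the wild type in DARK, 10.0, 9.38 and 8.79 CPM in bdr1,2,3 and 11.7, 11.8 and 10.5 CPM in the wild type after 2 h and 23.8, 26.8 and 30.6 CPM in bdr1,2,3 and 16.3, 19.7 and 20.7 CPM in the wild type after 4 h. The 3 times did not overlap in either genotype. The light to dark ratio in bdr1,2,3, where FLS1 had 5 dark counts in all, was 91.5 (exact 95% interval 38.9 to 284, from 386 and 5 counts) at 2 h and 259 (exact 95% interval 111 to 799.9, from 1006 and 5 counts) at 4 h. The log2 fold change in the wild type was 5.08 ± 0.26 at 2 h and 5.81 ± 0.24 at 4 h. UGT78D1, the flavonol rhamnosyltransferase, rose by 2.08 ± 0.15 in bdr1,2,3 and 2.39 ± 0.15 in the wild type after 2 h.

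The anthocyanin genes other than UGT78D2 were at or near 0 in darkness and reached their highest levels at 4 h. At 2 h, 3 of the 6 tested were called higher in bdr1,2,3 (UGT78D2, TT19 and UGT79B1) and 5 in the wild type (these 3, UGT75C1 and LDOX). LDOX, leucoanthocyanidin dioxygenase, had 0 counts in all 3 dark bdr1,2,3 libraries and 2 counts in the dark wild-type libraries together. After 2 h it had 0.0807, 0.0569 and 0 CPM in bdr1,2,3 and 0.579, 0.0832 and 0.259 CPM in the wild type, and after 4 h 4.16, 5.50 and 7.21 CPM in bdr1,2,3 and 2.28, 3.33 and 2.78 CPM in the wild type. The 4 h libraries of both genotypes lay above every earlier one. At 4 h LDOX was at least 23.7-fold higher than in darkness in bdr1,2,3, and in the wild type the ratio was 42.6 (exact 95% interval 11.5 to 357, from 102 and 2 counts). The rise of LDOX at 2 h was called in the wild type only (adjusted p 0.0382, from 11 counts against 2), although 1 lit library overlapped the dark ones, and DESeq2 or leaving out wild-type DARK replicate 1, 2 or 3 or wild-type 2 h replicate 1 ended the call (log2 fold changes 1.27 to 2.39 without 1 library). In the wild type TT19, the glutathione transferase that carries anthocyanins to the vacuole, had 0 counts in DARK, 0.992, 0.583 and 0.604 CPM after 2 h and 1.67, 3.07 and 2.36 CPM after 4 h, at least 6.00-fold above darkness at 4 h. In bdr1,2,3 it had 1 dark count, 0.323, 0.171 and 0.181 CPM after 2 h and 2.43, 3.33 and 4.02 CPM after 4 h.

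DFR, dihydroflavonol reductase, had 0.323, 0.0569 and 0 CPM in bdr1,2,3 and 0.0827, 0.250 and 0.0863 CPM in the wild type at 2 h and did not pass the test there in either genotype (adjusted p 0.823 in bdr1,2,3 and 0.424 in the wild type). At 4 h it had 1.41, 2.12 and 2.36 CPM in bdr1,2,3 and 1.14, 1.54 and 1.18 CPM in the wild type, ratios to darkness of 18.8 (exact 95% interval 7.70 to 59.6, from 73 and 5 counts) in bdr1,2,3 and 19.6 (exact 95% interval 5.14 to 167, from 47 and 2 counts) in the wild type. UGT75C1, the anthocyanin 5-O-glucosyltransferase, had 0.242, 0.0569 and 0 CPM in bdr1,2,3 and 0.496, 0.250 and 0.604 CPM in the wild type at 2 h, where it did not pass the test in bdr1,2,3 (adjusted p 0.844) and was called in the wild type with a ratio to darkness of 6.88 (exact 95% interval 1.62 to 61.7, from 16 and 2 counts). It gave ratios at 4 h of 16.1 (exact 95% interval 5.91 to 61.4, from 50 and 4 counts) in bdr1,2,3 and 16.3 (exact 95% interval 4.22 to 139, from 39 and 2 counts) in the wild type. UGT79B1, the xylosyltransferase, had 0 counts in all 6 dark libraries and was at least 7.12-fold higher at 4 h in bdr1,2,3 and at least 2.13-fold higher in the wild type. At 2 h it had 0.161, 0 and 0.0907 CPM in bdr1,2,3 and 0.165, 0.166 and 0.345 CPM in the wild type, from 3 counts in bdr1,2,3 and 8 in the wild type. The wild-type calls of TT19, UGT79B1 and UGT75C1 at 2 h held under every alternative and without any 1 library. The call of UGT79B1 at 2 h in bdr1,2,3 was lost under DESeq2, without the filter, with the replicate block, or without any 1 of 8 libraries (all 3 bdr1,2,3 DARK replicates, bdr1,2,3 2 h replicates 1 and 3, bdr1,2,3 4 h replicates 1 and 2, and wild-type 4 h replicate 1), at log2 fold changes of 2.21 to 3.11 without 1 library. UGT78D2, the 3-O-glucosyltransferase shared by flavonols and anthocyanins, did not follow this course and rose by 5.27 ± 0.17 in bdr1,2,3 and 5.02 ± 0.18 in the wild type after 2 h. All 6 tested anthocyanin genes were higher at 4 h in both genotypes. DFR, LDOX, UGT79B1, UGT75C1 and TT19 passed the filter on low counts only through the 4 h libraries. To be tested they had to be high there, so the number called at 4 h is no support by itself.

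Of the 9 tested regulators, 7 rose and 1 fell after 2 h in each genotype. MYB12, an activator of flavonol synthesis, had 0 counts in all 6 dark libraries. It had 7.51, 7.50 and 5.44 CPM in bdr1,2,3 and 5.71, 4.91 and 4.49 CPM in the wild type after 2 h, and 7.45, 9.68 and 8.63 CPM in bdr1,2,3 and 6.61, 9.81 and 9.19 CPM in the wild type after 4 h. It was therefore at least 28.7-fold higher after 2 h in bdr1,2,3 and at least 12.8-fold higher in the wild type. Its relative MYB111 rose by 2.30 ± 0.38 in bdr1,2,3 and 3.11 ± 0.38 in the wild type. PAP1, the MYB activator of late anthocyanin genes, had 0.0437, 0 and 0.0791 CPM in bdr1,2,3 and 0.263, 0.629 and 0.0834 CPM in the wild type in DARK, 3.07, 3.01 and 2.72 CPM in bdr1,2,3 and 4.88, 2.91 and 5.00 CPM in the wild type after 2 h and 1.65, 2.36 and 2.36 CPM in bdr1,2,3 and 1.37, 1.54 and 1.60 CPM in the wild type after 4 h. In each genotype its 2 h libraries lay above all others, whereas those of LDOX and DFR were highest at 4 h. The ratio to darkness was 71.7 (exact 95% interval 19.4 to 599, from 121 and 2 counts) at 2 h and 51.5 (exact 95% interval 13.8 to 433, from 80 and 2 counts) at 4 h in bdr1,2,3, and the log2 fold change in the wild type was 3.67 ± 0.39 and 2.17 ± 0.44. GL3, a bHLH partner of PAP1 that also acts in trichome formation, rose to 4.12, 3.30 and 4.90 CPM in bdr1,2,3 and 2.89, 1.83 and 2.24 CPM in the wild type after 2 h, against 2 dark counts in each genotype, ratios of 96.7 (exact 95% interval 26.3 to 805, from 163 and 2 counts) in bdr1,2,3 and 35.7 (exact 95% interval 9.58 to 299.7, from 83 and 2 counts) in the wild type. EGL3, its close relative, rose by 1.78 ± 0.20 in bdr1,2,3 and 1.50 ± 0.22 in the wild type.

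The repressors differed among themselves. MYBL2, a single-repeat MYB that inhibits anthocyanin synthesis, had 99.0, 108 and 87.7 CPM in bdr1,2,3 and 82.8, 81.8 and 86.7 CPM in the wild type in DARK, 46.2, 54.0 and 58.0 CPM in bdr1,2,3 and 63.8, 61.7 and 69.8 CPM in the wild type after 2 h and 39.6, 36.6 and 39.6 CPM in bdr1,2,3 and 40.5, 44.0 and 44.6 CPM in the wild type after 4 h. It fell at each step in both genotypes, and the times did not overlap. Its log2 fold change was -0.90 ± 0.08 in bdr1,2,3 and -0.37 ± 0.08 in the wild type after 2 h, and -1.35 ± 0.08 in bdr1,2,3 and -0.96 ± 0.08 in the wild type after 4 h. CPC, another single-repeat MYB, rose by 2.38 ± 0.16 in bdr1,2,3 and 2.73 ± 0.18 in the wild type after 2 h. MYB4, a repressor of C4H in sinapate ester synthesis, rose by 1.07 ± 0.10 in bdr1,2,3 and 1.21 ± 0.11 in the wild type. TTG1 did not pass the test at 2 h (-0.07 ± 0.09, adjusted p 0.503 in bdr1,2,3 and 0.04 ± 0.09, adjusted p 0.75 in the wild type) and was higher at 4 h by 0.25 ± 0.09 in bdr1,2,3 and 0.32 ± 0.09 in the wild type. In bdr1,2,3 the 4 h calls of TTG1 and PAL4 were lost without 1 of the bdr1,2,3 DARK replicates 2 or 3 or any bdr1,2,3 4 h library (log2 fold changes 0.19 to 0.41). The other light calls named here, except LDOX and UGT79B1 at 2 h, held without any 1 library.

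**Figure D2:**
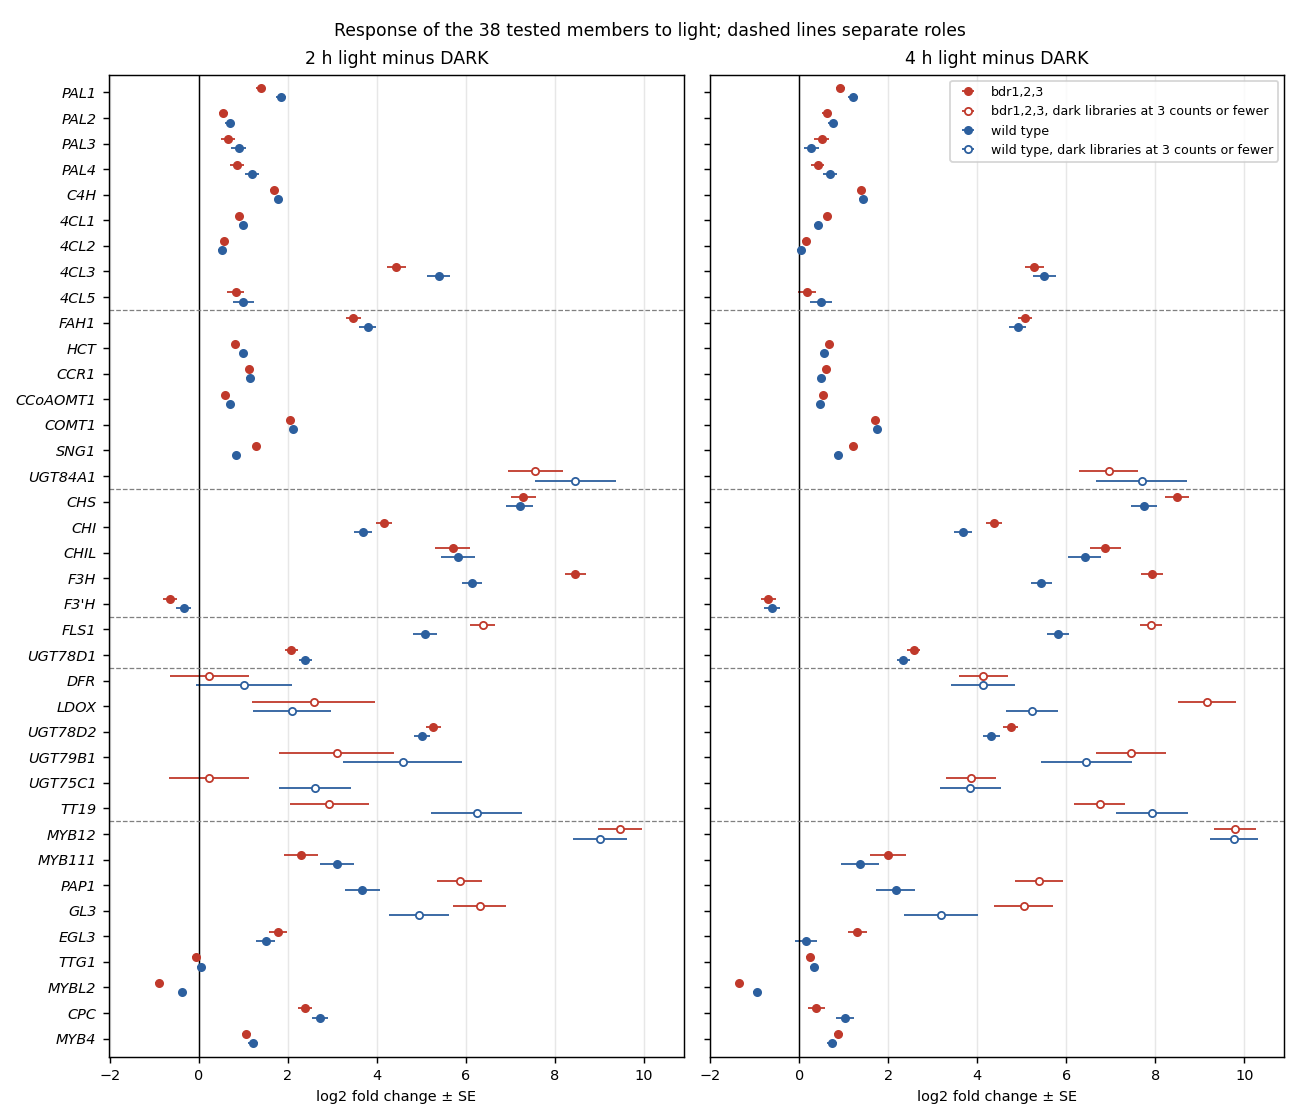
Log2 fold change ± SE (horizontal axis) of the 38 tested members after 2 h of light (left) and 4 h of light (right), each relative to DARK, with bdr1,2,3 in red above the wild type in blue for each gene. Open symbols have 3 counts or fewer in every dark library and depend on the fit's handling of low counts. Core and lignin genes mostly lie between 0 and 2, early flavonoid genes other than F3'H lie between 3.67 and 8.49, and MYBL2 and F3'H lie below 0 at both times.

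Between 2 and 4 h some members rose further and others fell back, only in part by role. In bdr1,2,3, 12 members were higher and 14 lower at 4 h than at 2 h (22.5% and 19.3% of all genes). In the wild type 11 were higher and 19 lower (23.4% and 22.6% of all genes). LDOX gave a ratio to its 2 h level of 111 (exact 95% interval 30.4 to 926, from 205 and 2 counts) in bdr1,2,3, and its log2 fold change was 3.14 ± 0.43 in the wild type. UGT79B1 gave a ratio of 23.2 (exact 95% interval 7.58 to 115, from 64 and 3 counts) and UGT75C1 of 13.6 (exact 95% interval 4.99 to 51.8, from 50 and 4 counts) in bdr1,2,3. In the wild type the log2 fold change was 1.87 ± 0.52 for UGT79B1 and 1.23 ± 0.46 for UGT75C1. DFR rose by 3.89 ± 0.56 in bdr1,2,3 and gave a ratio of 9.14 (exact 95% interval 3.65 to 29.4, from 47 and 5 counts) in the wild type, and TT19 rose by 3.81 ± 0.41 in bdr1,2,3 and 1.68 ± 0.35 in the wild type. Of the 6 tested anthocyanin genes 5 were higher in both genotypes and UGT78D2 was lower. These 5 passed the filter on low counts only through the 4 h libraries, so their number is no support by itself. In contrast, 6 of 9 core genes were lower in bdr1,2,3 and 6 in the wild type, of which PAL1, PAL4, C4H, 4CL1 and 4CL2 were shared. PAL1 (-0.47 ± 0.10 in bdr1,2,3 and -0.64 ± 0.10 in the wild type) and C4H (-0.29 ± 0.07 in bdr1,2,3 and -0.36 ± 0.07 in the wild type) are examples, while 4CL5 was called lower in bdr1,2,3 and PAL3 in the wild type. FAH1 continued to rise (1.60 ± 0.12 in bdr1,2,3 and 1.11 ± 0.12 in the wild type), as did FLS1 (1.52 ± 0.13 in bdr1,2,3 and 0.74 ± 0.13 in the wild type), CHS (1.20 ± 0.14 in bdr1,2,3 and 0.55 ± 0.14 in the wild type) and TTG1 (0.32 ± 0.09 in bdr1,2,3 and 0.29 ± 0.09 in the wild type). F3H (-0.53 ± 0.12 in bdr1,2,3 and -0.71 ± 0.12 in the wild type) and MYBL2 (-0.45 ± 0.09 in bdr1,2,3 and -0.60 ± 0.08 in the wild type) were lower. 4CL3 passed the test in bdr1,2,3 (0.83 ± 0.14) and not in the wild type (0.11 ± 0.14), whereas MYB12 did not pass it in bdr1,2,3 (0.33 ± 0.18) and did in the wild type (0.76 ± 0.18), as did PAP1 (-0.47 ± 0.29 in bdr1,2,3 and -1.50 ± 0.29 in the wild type). SNG1 did not pass it in either (-0.10 in bdr1,2,3 and 0.02 in the wild type). CPC fell on the log2 scale by 2.00 in bdr1,2,3 and 1.70 in the wild type. Of the 9 tested regulators, 1 was higher and 4 lower in bdr1,2,3, and 2 were higher and 7 lower in the wild type. Of the 7 lignin and sinapate genes, 1 was higher and 2 lower in bdr1,2,3, and 1 was higher and 4 lower in the wild type. Without any 1 of the 2 or 4 h libraries of the same genotype, or for bdr1,2,3 without wild-type 2 h replicate 1, up to 3 calls were lost at a time. These were PAL4, 4CL1, 4CL5 and EGL3 in bdr1,2,3 (log2 fold changes between 0.21 and 0.52 in size) and PAL4, CCoAOMT1, CHIL, UGT75C1 and TTG1 in the wild type (between 0.17 and 1.32).

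The second question was whether bdr1,2,3 differed from the wild type. In DARK, 10 members were higher and 3 lower in bdr1,2,3 (8.04% and 11.3% of all genes were called higher and lower). The higher ones were mostly core genes, 7 of 9. PAL1 at 118, 132 and 107 CPM in bdr1,2,3 lay above 58.2, 61.6 and 70.9 CPM in the wild type, a difference of 0.90 ± 0.11 (SE, adjusted p 2.72e-06). 4CL5 differed by 0.84 ± 0.22, PAL4 by 0.60 ± 0.16, C4H by 0.45 ± 0.07, PAL2 by 0.39 ± 0.10, 4CL1 by 0.33 ± 0.09 and 4CL2 by 0.30 ± 0.09. The lignin methyltransferases CCoAOMT1 (0.40 ± 0.07) and COMT1 (0.38 ± 0.07) were higher too, as was MYBL2 (0.23 ± 0.08, adjusted p 0.0438). In all of these except PAL4 the genotypes did not overlap. That describes genes already called from the same libraries and adds no support to the calls. SNG1 was lower by 0.42 on the log2 scale (SE 0.08, adjusted p 8.20e-04), and F3H by 1.92 (SE 0.55, adjusted p 0.0212). F3H rested on 11, 2 and 3 counts in bdr1,2,3 and 7, 16 and 16 counts in the wild type. PAP1 was also called lower (adjusted p 0.0175), with a ratio of 0.126 (exact 95% interval 0.0135 to 0.593, from 2 and 10 counts).

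The calls of PAL1, C4H, 4CL5, CCoAOMT1, COMT1 and SNG1 in DARK held without any 1 library. The other 7 were lost without at least 1 of 9 libraries, namely the 6 DARK libraries, wild-type 4 h replicates 2 and 3, and bdr1,2,3 2 h replicate 2, at differences between 0.16 and 2.78 in size. The number called was 8, against 13 with all libraries, without bdr1,2,3 DARK replicate 2 or wild-type DARK replicate 2. 4CL3 (0.47), FAH1 (0.48), CHS (-0.30) and TTG1 (-0.01) did not pass the test in DARK. Nor did FLS1 with 5 counts in bdr1,2,3 and 10 in the wild type, DFR with 5 and 2, LDOX with 0 and 2, or MYB12 with 0 in both.

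After 2 h of light, 8 members were higher and 8 lower in bdr1,2,3 (8.67% and 10.6% of all genes). The higher ones were again core and lignin genes, PAL1 (0.44 ± 0.10), 4CL5 (0.67 ± 0.19), C4H (0.35 ± 0.07), 4CL2 (0.34 ± 0.09), COMT1 (0.32 ± 0.07), CCoAOMT1 (0.29 ± 0.07) and 4CL1 (0.25 ± 0.08), together with F3H (0.40 ± 0.12). F3H had 136, 118 and 104 CPM in bdr1,2,3 and 93.0, 94.3 and 83.7 CPM in the wild type, so its genotypes did not overlap and their order was the reverse of that in darkness. The lower ones were 5 genes of the flavonoid and anthocyanin branches, the regulators MYB111 and MYBL2, and the core gene 4CL3. Of the 5, LDOX, UGT75C1 and TT19 had few counts at 2 h. TT19 was lower by 1.68 on the log2 scale (SE 0.50, adjusted p 0.021), from 9 counts in bdr1,2,3 and 26 in the wild type. LDOX gave a ratio of 0.158 (exact 95% interval 0.0170 to 0.725, from 2 and 11 counts) and UGT75C1 of 0.218 (exact 95% interval 0.0529 to 0.675, from 4 and 16 counts). MYB111 had 2.02, 2.27 and 2.54 CPM in bdr1,2,3 and 5.38, 5.33 and 3.71 CPM in the wild type, with no overlap and a difference of -1.08 ± 0.29 (SE, adjusted p 0.0111). CHIL (-0.64 ± 0.20), 4CL3 (-0.48 ± 0.14), UGT78D1 (-0.44 ± 0.12) and MYBL2 (-0.30 ± 0.08) were lower as well. CHS (-0.21 ± 0.14, adjusted p 0.361), FLS1 (-0.27 ± 0.14, adjusted p 0.18), MYB12 (0.45 ± 0.19, adjusted p 0.105) and PAP1 (-0.53 ± 0.27, adjusted p 0.179) did not pass the test, and neither did FAH1 (0.16), SNG1 (0.03), TTG1 (-0.11) or DFR, with 5 counts in each genotype.

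Only the calls of PAL1, C4H, 4CL2, CCoAOMT1 and COMT1 at 2 h held without any 1 library. The other 11 were lost without at least 1 of 12 libraries (all 6 at 2 h, the 3 wild-type 4 h replicates, bdr1,2,3 4 h replicate 2, and wild-type DARK replicates 2 and 3), at differences between 0.18 and 2.84 in size. The number called fell to 8 without bdr1,2,3 2 h replicate 2 or wild-type 2 h replicate 3, and to 10 without bdr1,2,3 2 h replicate 3 or wild-type 2 h replicate 1. CHIL, LDOX, UGT75C1 and TT19 were each lost under at least 1 of DESeq2, no filter and the replicate block. LDOX, UGT75C1 and TT19 passed the filter on low counts only through the 4 h libraries. In a fit to the 6 libraries at 2 h alone, chosen after seeing the data, they were not called, with or without the block. That fit gained PAL2, PAL4, UGT84A1 and GL3, and with the block also CHS and MYB12.

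After 4 h of light the balance was to the higher side, with 15 members higher and 1 lower in bdr1,2,3 (7.86% and 8.67% of all genes) and a median of 0.39 over the 38 tested. EGL3 had 4.23, 5.50 and 6.97 CPM in bdr1,2,3 and 2.51, 2.82 and 2.61 CPM in the wild type, with no overlap and a difference of 1.05 ± 0.21 (SE, adjusted p 8.29e-04). LDOX, now well above its floor, was higher by 0.99 ± 0.29 (SE, adjusted p 0.0213). Its lowest bdr1,2,3 library, at 4.16 CPM, lay above the highest wild-type library at 3.33 CPM. The call of LDOX in the other direction at 2 h rested on few counts. It was lost under DESeq2 and in the 2 h libraries alone, so a reversal between 2 and 4 h was not shown. Early flavonoid and flavonol genes were higher too: CHS by 0.44 ± 0.14, F3H by 0.57 ± 0.12 and FLS1 by 0.51 ± 0.12. Of the core genes, PAL1 (0.62 ± 0.10), 4CL1 (0.53 ± 0.08), 4CL2 (0.42 ± 0.09) and C4H (0.41 ± 0.07) were higher, and of the lignin and sinapate genes FAH1 (0.65 ± 0.11), CCoAOMT1 (0.47 ± 0.07), COMT1 (0.35 ± 0.07) and HCT (0.30 ± 0.07), the shikimate transferase. MYB4 (0.44 ± 0.10) and GL3 (1.29 ± 0.43, adjusted p 0.0419) completed the list, and CPC was lower (-0.56 ± 0.18, adjusted p 0.0345). DFR (0.60), PAP1 (0.49), 4CL3 (0.25), MYB12 (0.02), TTG1 (-0.08), SNG1 (-0.09) and MYBL2 (-0.16) did not pass the test.

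Libraries of the same number deviated together at 4 h, and the fit with the replicate number as a block called PAL2 higher (0.27, adjusted p 0.0488) and no longer called GL3. In a fit to the 6 libraries at 4 h alone, chosen after seeing the data, 15 members were higher and 1 lower without the block and 22 higher and 1 lower with it. The blocked fit called all 16 members named above and also PAL2, PAL4, 4CL5, UGT84A1, CHI, UGT78D2 and UGT79B1. CHS was not called in the 4 h libraries alone, with DESeq2's size factors or without the filter, and LDOX, GL3 and CPC were not called by DESeq2. CHS, LDOX, GL3 and CPC were each lost without at least 1 of 15 libraries (all 12 lit libraries, bdr1,2,3 DARK replicate 1 and wild-type DARK replicates 1 and 2), at differences of 0.32 to 1.47 in size, and the remaining 12 calls held. GL3 and EGL3 also act in trichomes, and the sum of the trichome markers GL1 and GL2 was higher in bdr1,2,3 at all 3 times, with no overlap. It was 5.46 to 6.80 CPM in bdr1,2,3 and 4.17 to 5.30 CPM in the wild type in DARK, 2.83 to 4.21 CPM in bdr1,2,3 and 1.24 to 1.47 CPM in the wild type after 2 h, and 2.72 to 2.96 CPM in bdr1,2,3 and 0.759 to 1.20 CPM in the wild type after 4 h. GL1 had 3 counts or fewer in every library of the experiment, so the sum was nearly all GL2 and says nothing on GL1. The part of these markers in the differences was not tested.

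**Figure D3:**
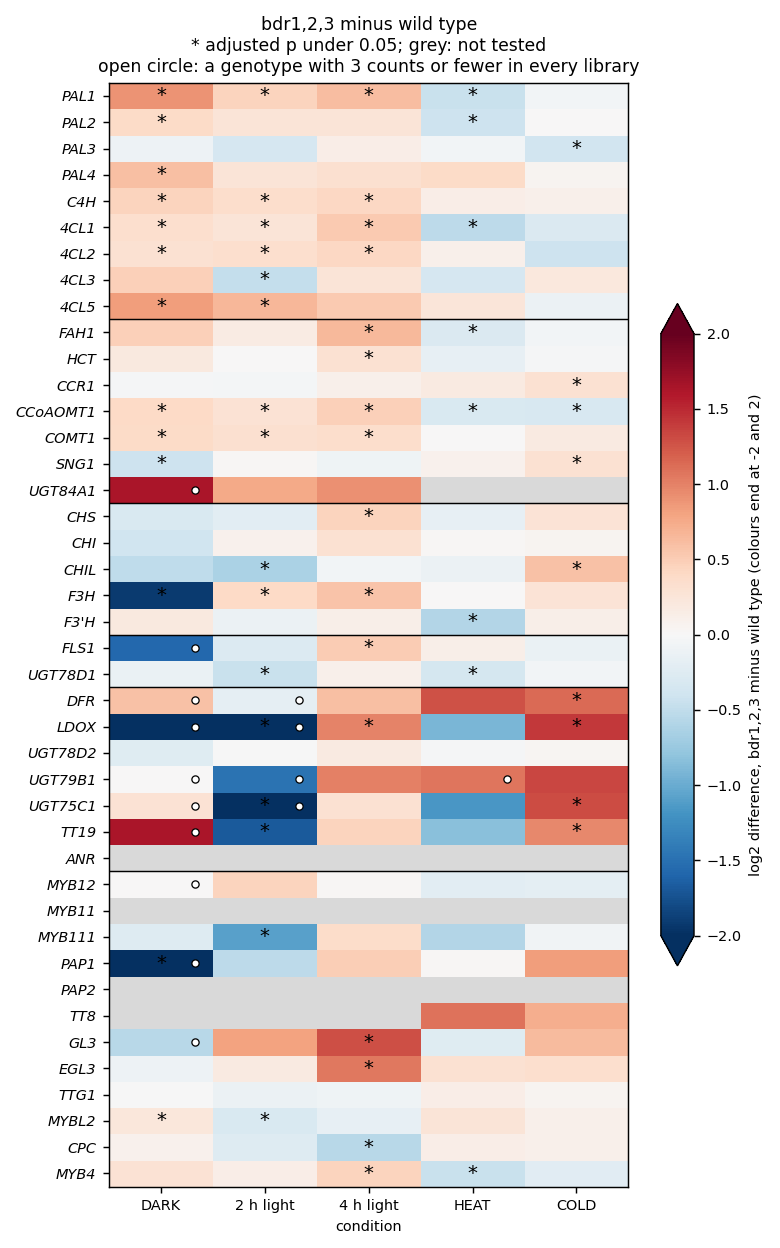
Log2 difference, bdr1,2,3 minus wild type, for the 42 members (rows, grouped by role) in the 5 conditions (columns), with asterisks at adjusted p under 0.05, grey for members not tested, and open circles where a genotype had 3 counts or fewer in every library. Most core genes are red in DARK and in light, PAL1, PAL2 and 4CL1 are blue in HEAT, and LDOX, UGT75C1 and TT19 are blue at 2 h of light and red in COLD.

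Whether the genotype difference itself changed on illumination was tested as an interaction, the difference in light minus that in DARK. At 2 h, 2 members were called higher and 1 lower (1.1% and 0.743% of all genes), and at 4 h 2 were higher and 0 lower (0.999% and 1.07%). Both interactions use the same DARK libraries. F3H gave 2.32 ± 0.56 (SE, adjusted p 0.0448) at 2 h and 2.49 ± 0.57 (SE, adjusted p 0.0297) at 4 h, its counts in DARK being those given above. SNG1 gave 0.45 ± 0.12 (SE, adjusted p 0.0467) at 2 h. MYBL2 gave -0.54 ± 0.11 (SE, adjusted p 0.0122) at 2 h, being higher in bdr1,2,3 in DARK and lower after 2 h at the levels given above. PAP1 gave 3.22 ± 0.85 (SE, adjusted p 0.0484) at 4 h, from 1, 0 and 1 dark counts in bdr1,2,3 and 2, 7 and 1 in the wild type. Of these 5 calls, that of MYBL2 held without any 1 of the 18 libraries, where it ranged from -0.61 to -0.45. F3H at 4 h was lost without replicate 2 or 3 of DARK in either genotype (2.24 to 3.22 without 1 library), and at 2 h without any DARK library, any wild-type 2 h library, bdr1,2,3 2 h replicate 2 or bdr1,2,3 4 h replicate 2 (2.07 to 3.05). SNG1 was lost without any library but bdr1,2,3 DARK replicate 2 or bdr1,2,3 4 h replicate 1 (0.37 to 0.50). PAP1 was lost without any library but bdr1,2,3 DARK replicate 3, bdr1,2,3 4 h replicate 1, wild-type DARK replicate 3 or wild-type 2 h replicate 2 (2.19 to 3.75). At 2 h the calls of F3H and SNG1 were also lost without the filter on low counts (adjusted p 0.0663 for F3H and 0.0599 for SNG1) and with the replicate block (0.0665 for F3H and 0.0648 for SNG1), and at 4 h that of PAP1 was lost with DESeq2's size factors (0.0524) and with the block (0.0771). MYBL2 (-0.39 ± 0.12, adjusted p 0.0946) and SNG1 (0.33 ± 0.12, adjusted p 0.174) did not pass the test at 4 h, nor PAP1 at 2 h (2.19 ± 0.83, adjusted p 0.213). PAL1, C4H, 4CL3, CHS, FLS1, FAH1, LDOX, DFR, MYB12 and TTG1 were not shown to differ between light and dark in their genotype effect (adjusted p from 0.119 for FLS1 at 4 h and 0.123 for PAL1 at 2 h upward).

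The third question was the response to the shift to 27 °C. Here most members fell. In bdr1,2,3, 3 members were higher and 29 lower in HEAT than in COLD (29.4% and 31.2% of all genes), with a median of -0.92. In the wild type 3 were higher and 24 lower (29.3% and 28.5% of all genes), with a median of -0.76. Without both HEAT libraries numbered 1 the totals were 31 in bdr1,2,3 and 27 in the wild type. The calls of GL3 and TTG1 in bdr1,2,3 and of EGL3 and F3'H in the wild type were lost without them, and MYB12 was gained in both genotypes and MYB11 in the wild type.

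Of the 6 tested anthocyanin genes 5 fell in both genotypes. These 5 (LDOX, DFR, TT19, UGT75C1 and UGT79B1) passed the filter on low counts only through the COLD libraries. To be tested they had to be high there, so their number is no support by itself. LDOX had 0.141, 0.186 and 0.370 CPM in HEAT and 5.54, 6.07 and 4.84 CPM in COLD in bdr1,2,3, and 0.138, 0.453 and 0.749 CPM in HEAT and 3.20, 1.26 and 1.47 CPM in COLD in the wild type. In both genotypes every HEAT library lay below every COLD library, and the log2 fold change was -4.50 ± 0.44 in bdr1,2,3 and -2.16 ± 0.44 in the wild type (edgeR adjusted p 1.88e-07 in bdr1,2,3 and 5.00e-04 in the wild type). DFR fell to 0.494, 0.280 and 0.222 CPM in HEAT in bdr1,2,3, against 4.92, 7.41 and 4.70 CPM in COLD, and to 0, 0.324 and 0.0681 CPM in the wild type, against 3.64, 2.65 and 1.53 CPM. Its log2 fold change was -4.02 ± 0.45 in bdr1,2,3 and -4.16 ± 0.59 in the wild type. TT19 changed by -4.23 ± 0.42 in bdr1,2,3 and -2.44 ± 0.41 in the wild type, and UGT75C1 by -4.19 ± 0.44 in bdr1,2,3 and -1.74 ± 0.43 in the wild type. UGT79B1 had 4 counts in HEAT in bdr1,2,3 and 2 in the wild type, ratios of 0.0726 (exact 95% interval 0.0192 to 0.194, from 4 and 71 counts) in bdr1,2,3 and 0.0768 (exact 95% interval 0.00876 to 0.312, from 2 and 22 counts) in the wild type, where COLD replicate 2 had 0 counts too. UGT78D2 did not pass the test in either genotype (-0.22 in bdr1,2,3 and -0.16 in the wild type).

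Of the early flavonoid genes, F3H fell to 2.04, 3.63 and 2.37 CPM in HEAT in bdr1,2,3, against 17.4, 20.7 and 14.3 CPM in COLD, and to 2.49, 3.11 and 2.18 CPM in the wild type, against 17.4, 11.6 and 13.4 CPM. HEAT and COLD did not overlap, and the log2 fold changes were -2.73 ± 0.21 in bdr1,2,3 and -2.46 ± 0.21 in the wild type. CHIL changed by -2.19 ± 0.21 in bdr1,2,3 and -1.49 ± 0.21 in the wild type, CHI by -1.32 ± 0.17 in bdr1,2,3 and -1.29 ± 0.17 in the wild type, CHS by -1.20 ± 0.25 in bdr1,2,3 and -0.77 ± 0.25 in the wild type, and FLS1 by -1.95 ± 0.25 in bdr1,2,3 and -2.19 ± 0.24 in the wild type. In the core pathway all 4 PAL genes fell, with log2 fold changes for PAL1 of -1.62 ± 0.11 in bdr1,2,3 and -1.22 ± 0.11 in the wild type, for PAL3 of -1.31 ± 0.12 in bdr1,2,3 and -1.66 ± 0.12 in the wild type and for PAL4 of -1.52 ± 0.21 in bdr1,2,3 and -1.84 ± 0.22 in the wild type. PAL2 fell on the log2 scale by 1.00 in bdr1,2,3 and 0.57 in the wild type. Among the ligases, 4CL1 fell by 1.00 in bdr1,2,3 and 0.76 in the wild type, 4CL2 by 0.67 in bdr1,2,3 and 1.18 in the wild type and 4CL5 by 0.91 in bdr1,2,3 and 1.26 in the wild type on the log2 scale. 4CL3 fell in bdr1,2,3 (-0.92 ± 0.20) and did not pass the test in the wild type (-0.38 ± 0.20, adjusted p 0.115). C4H was the exception and rose by 0.41 ± 0.10 in bdr1,2,3 and 0.38 ± 0.10 in the wild type.

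SNG1 rose most clearly. It had 1348, 1301 and 1466 CPM in HEAT and 473, 443 and 529 CPM in COLD in bdr1,2,3, and 1251, 1288 and 1322 CPM in HEAT and 372, 388 and 403 CPM in COLD in the wild type. The temperatures were far apart in both genotypes, with log2 fold changes of 1.51 ± 0.08 (SE, adjusted p 1.99e-10) in bdr1,2,3 and 1.73 ± 0.08 (SE, adjusted p 6.15e-11) in the wild type. FAH1, upstream of it, fell on the log2 scale by 0.59 in bdr1,2,3 and 0.35 in the wild type. CPC was the remaining member called higher in bdr1,2,3 (0.62 ± 0.25, adjusted p 0.037), and F3'H that in the wild type (0.48 ± 0.17, adjusted p 0.0259). Among the regulators, TT8 changed by -1.31 ± 0.39 in bdr1,2,3 and -1.66 ± 0.49 in the wild type, and PAP1 (-1.35 ± 0.40) and GL3 (-1.66 ± 0.68) fell in bdr1,2,3 and did not pass the test in the wild type (-0.54 for PAP1 and -0.77 for GL3). MYBL2 changed by -0.44 ± 0.14 in bdr1,2,3 and -0.59 ± 0.15 in the wild type and TTG1 by -0.37 ± 0.11 in bdr1,2,3 and -0.44 ± 0.12 in the wild type, both called, while MYB12 did not pass the test (-0.93 in bdr1,2,3 and -0.92 in the wild type). Without 1 library of the experiment, calls were lost for MYB111, GL3, TTG1, MYBL2 and CPC in bdr1,2,3 (differences of 0.21 to 1.67 in size, with 27 of 32 held) and for COMT1, CHS, F3'H, TT8 and EGL3 in the wild type (0.14 to 1.23, with 22 of 27 held). Those libraries were all 6 of the genotype concerned, wild-type HEAT replicates 2 and 3 for bdr1,2,3, and all bdr1,2,3 libraries but COLD replicate 3 for the wild type.

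**Figure D4:**
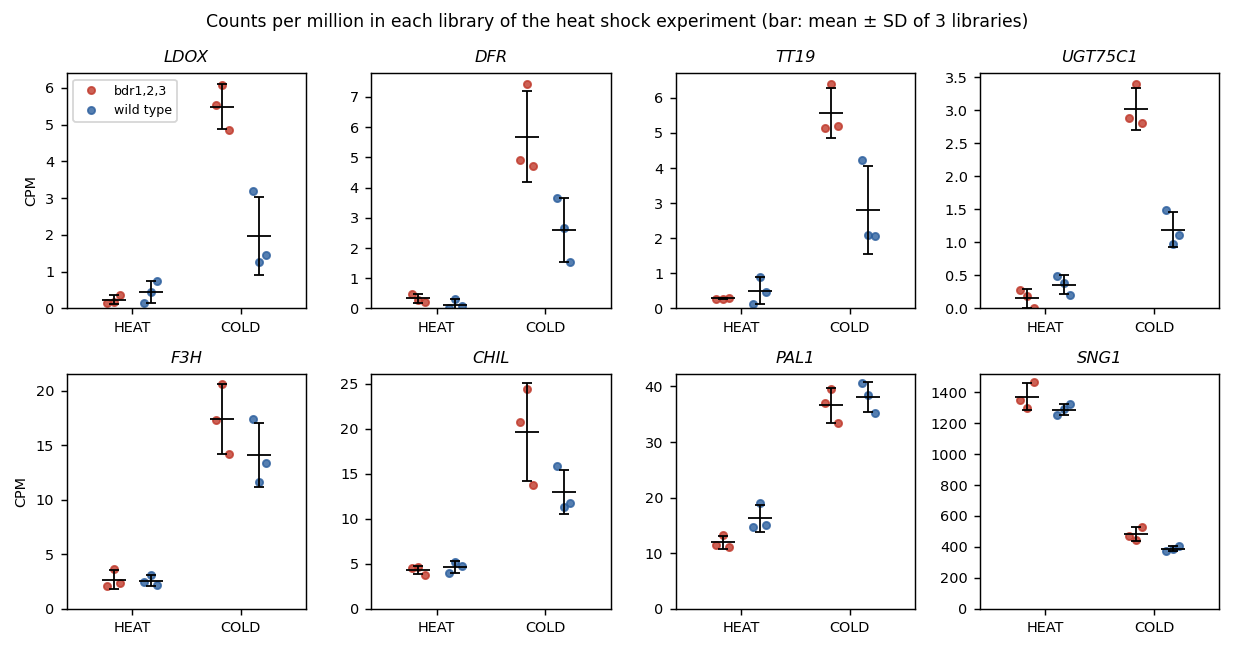
Level of 8 members in each library of the heat shock experiment, in CPM on linear axes that start at 0, in HEAT (left of each panel) and COLD (right). Red points are bdr1,2,3 and blue points wild-type libraries, and bars give the mean and SD of 3 libraries. All panels but SNG1 are lower in HEAT, and in COLD LDOX, DFR, TT19 and UGT75C1 are higher in bdr1,2,3 than in the wild type.

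In COLD, 7 members were higher and 2 lower in bdr1,2,3 than in the wild type (4.57% and 6.36% of all genes). The higher ones included 4 of 6 tested anthocyanin genes. UGT75C1 had 2.88, 3.39 and 2.81 CPM in bdr1,2,3 and 1.49, 0.978 and 1.11 CPM in the wild type, and TT19 had 5.14, 6.39 and 5.20 CPM in bdr1,2,3 and 4.24, 2.10 and 2.05 CPM in the wild type. LDOX differed by 1.42 ± 0.30 (SE, adjusted p 0.00426), UGT75C1 by 1.30 ± 0.30 (SE, adjusted p 0.00824), DFR by 1.14 ± 0.31 (SE, adjusted p 0.0274) and TT19 by 0.96 ± 0.28 (SE, adjusted p 0.0371). In each of these genes every bdr1,2,3 library lay above every wild-type library, and wild-type replicate 1 was the highest of its group. The lack of overlap describes genes already called from the same libraries and adds no support to the calls. CHIL (0.58 ± 0.18), SNG1 (0.31 ± 0.08) and CCR1 (0.30 ± 0.09), the first enzyme of monolignol synthesis, were higher too, and PAL3 (-0.39 ± 0.11) and CCoAOMT1 (-0.32 ± 0.09) were lower. PAL1 (-0.06), C4H (0.10), 4CL3 (0.21), CHS (0.27), F3H (0.28), FLS1 (-0.13), FAH1 (-0.05), MYB12 (-0.19), PAP1 (0.83), MYBL2 (0.10) and TTG1 (0.06) did not pass the test. Each of the 9 calls was lost without at least 1 library. The number called was 1 without wild-type COLD replicate 3, 4 without replicate 2 of either genotype, and 5 without bdr1,2,3 COLD replicate 1 or 3. Calls also ended without wild-type COLD replicate 1 or a HEAT library other than wild-type replicate 1, at differences between 0.24 and 1.21 in size. Leaving out both HEAT libraries numbered 1, which share the fit, ended the call of CHIL and gained 4CL1 and 4CL2. Among markers of other tissues, the summed level of 3 seed storage genes was 5.98 to 9.13 CPM in bdr1,2,3 and 1.19 to 4.17 CPM in the wild type, and that of 4 root genes 47.0 to 52.1 CPM in bdr1,2,3 and 54.4 to 62.7 CPM in the wild type. The 3 leaf markers summed to 21010 to 23870 CPM in bdr1,2,3 and 18900 to 20290 CPM in the wild type, with no overlap. The part of these markers in the differences was not tested.

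In HEAT, 0 members were higher and 8 lower in bdr1,2,3 (8.53% and 10.9% of all genes). PAL1 had 11.4, 13.3 and 11.1 CPM in bdr1,2,3 and 14.7, 19.0 and 15.0 CPM in the wild type, with no overlap and a difference of -0.45 ± 0.12 (SE, adjusted p 0.0108). F3'H (-0.59 ± 0.17), 4CL1 (-0.53 ± 0.12), MYB4 (-0.44 ± 0.13), PAL2 (-0.42 ± 0.10), UGT78D1 (-0.35 ± 0.12), CCoAOMT1 (-0.31 ± 0.09) and FAH1 (-0.29 ± 0.07) were lower as well. C4H (0.13), 4CL3 (-0.33), CHS (-0.16), F3H (0.01), FLS1 (0.11), DFR (1.27), LDOX (-0.91), SNG1 (0.09), MYB12 (-0.21), PAP1 (0.02), MYBL2 (0.25) and TTG1 (0.13) did not pass the test. Only PAL2 and 4CL1 held without any 1 library. Without both HEAT libraries numbered 1, MYB4, UGT78D1 and CCoAOMT1 were lost and 5 calls remained. The number called was 3 without bdr1,2,3 HEAT replicate 3, 4 without wild-type HEAT replicate 2 and 5 without bdr1,2,3 HEAT replicate 1, and calls also ended without the other HEAT libraries or wild-type COLD replicates 2 and 3 (differences between 0.24 and 0.63 in size). The seed storage markers summed to 8.89 to 12.9 CPM in bdr1,2,3 and 1.04 to 3.17 CPM in the wild type in HEAT, and the leaf markers to 20740 to 23090 CPM in bdr1,2,3 and 18060 to 20600 CPM in the wild type. Neither overlapped, and their part was not tested.

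For the interaction of genotype and temperature, edgeR called 0 of the 38 tested members higher and 0 lower (0.488% and 0.529% of all genes), and 9 had an unadjusted p under 0.05. DESeq2 called 0 of the 35 members to which it gave an adjusted p, and edgeR called 0 without both HEAT libraries numbered 1. The largest values were those of UGT75C1 (-2.46 ± 0.72, adjusted p 0.131) and LDOX (-2.34 ± 0.75, adjusted p 0.174). The other representatives lay between -0.81 for PAP1 and 0.24 for FLS1. The genotype differences of the anthocyanin genes in COLD and HEAT were thus not shown to differ, although they were called in COLD and not in HEAT.

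A wider list of 48 further genes of these pathways was examined for comparison, of which 35 were tested. After 2 h of light 19 were higher and 8 lower in bdr1,2,3 (33.9% and 33.8% of all genes), and 21 higher and 7 lower in the wild type (33.9% and 32.9%), with medians of 0.51 in bdr1,2,3 and 0.50 in the wild type. The largest rise was that of SAT, the sinapoyltransferase that acts on anthocyanins, which had 0 counts in all 6 dark libraries and was at least 242-fold higher in bdr1,2,3 and at least 127-fold higher in the wild type after 2 h. UGT89C1, a flavonol rhamnosyltransferase, rose by 3.90 ± 0.11 in bdr1,2,3 and 4.43 ± 0.13 in the wild type, and UGT84A2, a sinapate glucosyltransferase, by 3.55 ± 0.13 in bdr1,2,3 and 3.75 ± 0.14 in the wild type. KFB01, an F-box protein that marks PAL for degradation, fell on the log2 scale by 2.13 in bdr1,2,3 and 2.21 in the wild type, and ETC1, a single-repeat MYB of epidermal patterning, by 1.95 in bdr1,2,3 and 1.67 in the wild type. After 4 h, 19 were higher and 9 lower in bdr1,2,3 (35.9% and 34.1% of all genes) and 20 higher and 8 lower in the wild type (35.2% and 34.9%). SAT was at least 240-fold higher than in DARK in bdr1,2,3 and at least 110.4-fold higher in the wild type, and UGT89C1 differed by 3.02 ± 0.11 in bdr1,2,3 and 3.30 ± 0.14 in the wild type.

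Between genotypes, 12 of these 35 were higher and 4 lower in bdr1,2,3 in DARK (8.04% and 11.3% of all genes), 10 and 3 after 2 h (8.67% and 10.6%), and 11 and 2 after 4 h (7.86% and 8.67%). CCR2, a cinnamoyl-CoA reductase, differed by 1.08 ± 0.17, 0.91 ± 0.12 and 0.73 ± 0.12 at the 3 times. MYB63, an activator of lignin genes, was higher by 1.45 ± 0.44 in DARK and 1.71 ± 0.33 after 2 h. UGT84A3, a sinapate glucosyltransferase, was lower by 0.91 and 0.80, and UGT73C6, a flavonol glucosyltransferase, by 0.84 and 0.51, on the log2 scale. MED5b, a Mediator subunit known to hold back phenylpropanoid synthesis together with MED5a, was lower by 0.82, 1.07 and 1.11 on the log2 scale at these times, by 1.55 in HEAT and by 1.20 in COLD. Its level was 18.3, 17.4 and 16.8 CPM in bdr1,2,3 and 31.7, 27.5 and 33.5 CPM in the wild type in DARK. MED5a was called higher in bdr1,2,3 in DARK and was not called between genotypes in the other conditions. The part of either subunit in the differences was not tested. In HEAT 2 of the 35 were higher and 4 lower in bdr1,2,3 (8.53% and 10.9% of all genes), and in COLD 0 were higher and 1, MED5b, was lower (4.57% and 6.36%). In response to heat, 6 rose and 11 fell in bdr1,2,3 (29.4% and 31.2% of all genes), and 11 rose and 14 fell in the wild type (29.3% and 28.5%). The steepest fall was that of 5MAT, the anthocyanin malonyltransferase, with a ratio of 0.0300 (exact 95% interval 0.00357 to 0.112, from 2 and 86 counts) in bdr1,2,3. UGT89C1 fell by 1.64 in bdr1,2,3 and 1.35 in the wild type, and MYB7, a repressor-type MYB, rose by 0.84 ± 0.21 in bdr1,2,3 and 0.85 ± 0.21 in the wild type.

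Since BDR proteins have been studied at genes that lie in tandem, the upstream neighbours of the members were examined in TAIR10.1. A same-strand protein-coding neighbour lay upstream of 17 of 42 members (40.5%), against 53.2% of 25873 nuclear protein-coding genes. It lay within 600 bp of 5 of them (11.9% against 21.9%): 4CL2 at 28 bp, MYBL2 at 192 bp, CCR1 at 197 bp, TT19 at 222 bp and ANR at 366 bp. Those tested were not all called in 1 direction. In bdr1,2,3 4CL2 was higher in DARK and at both light times, MYBL2 was higher in DARK and lower at 2 h, CCR1 was higher in COLD only, TT19 was lower at 2 h and higher in COLD, and ANR was not tested. The call of TT19 at 2 h rested on few counts and was not kept in the 2 h libraries alone. The calls of 4CL2 in DARK, MYBL2 in DARK and at 2 h, and CCR1 and TT19 in COLD were each lost without at least 1 library.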

How the data were processed

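mRNA of whole seedlings was sequenced from stranded libraries, 18 for photomorphogenesis and 12 for heat shock. The authors deposited raw read counts per gene, and the submitters' notes name STAR 2.5.2b, SAMtools 1.3.1, featureCounts, R 3.3.2, DESeq2 1.14.1 and the build TAIR10. The strand setting of the counting was not given in the sources used here. Tables of counts scaled by library were not used.

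Counts were analysed in R 4.3.3 with edgeR 4.0.16 (filterByExpr, TMM scaling, robust glmQLFit, glmQLFTest, 1 coefficient per group, all groups of an experiment in 1 fit), and genes were called at a Benjamini-Hochberg adjusted p under 0.05 over all genes tested. Tables were handled with pandas 2.3.3 and plotted with matplotlib 3.10.9. CPM used the TMM-scaled library sizes, and the 2 experiments were scaled separately, so levels are compared within each. The scripts were tested on simulated counts. Where a group had 3 counts or fewer in every library, ratios of summed counts with exact 95% intervals, or bounds from a floor of 3 counts, stand in place of the fitted fold change, and they cover counting error only. Promoter windows, motifs and neighbours were taken from TAIR10.1 with its RefSeq annotation, to which all 42 members were matched by locus identifier.

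Members with a call and a log2 fold change of at least 2 (light) or 1 (heat) in either genotype were named, all called members in the genotype comparisons and interactions, and 14 role representatives in every comparison (PAL1, C4H, 4CL3, CHS, F3H, FLS1, DFR, LDOX, FAH1, SNG1, MYB12, PAP1, MYBL2 and TTG1). Of the wider list, some called genes with large changes were named, without a fixed rank. Among those left out were F6'H1 and FLS5, the largest falls in light in bdr1,2,3. SPL9, which rose in light, and MYB85, the largest rise in heat in the wild type, were left out too. The members and lists were chosen with earlier results of these data known. Alternatives were DESeq2 1.42.0, its size factors in edgeR, no filter, a replicate block, and leaving out each library, and, chosen after seeing the data, leaving out both HEAT libraries numbered 1 and fits to the 6 libraries of a genotype comparison alone. Same-numbered libraries deviated together at a correlation above 0.1 in every pair only between genotypes at 4 h of light (correlations of deviations from the group means 0.63, 0.407 and 0.187), so the pairing comes from the data and not from the labels. Even there, not every library correlated best with the one of its own number. Some other comparisons had weaker positive values in every pair, such as the genotypes in DARK (0.181, 0.032 and 0.284) and in HEAT (0.379, 0.066 and 0.2). No pair of replicates agreed within sampling noise (chi-square per degree of freedom 2.02 to 15.4).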

Additional observations from a re-analysis of the deposited data

Results flagged for a closer look

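In 5 cases the difference between bdr1,2,3 and wild type was itself different in light and in darkness, by edgeR's interaction test over all genes. The value of each is the log2 genotype difference in light minus that in DARK. At 2 h it was 2.32 for F3H, 0.45 for SNG1 and -0.54 for MYBL2, and at 4 h it was 2.49 for F3H and 3.22 for PAP1. Only the result for MYBL2 passed the threshold without any 1 of the 18 libraries, and F3H at 4 h did so in 14 of 18, F3H at 2 h in 7, PAP1 in 4 and SNG1 in 2. The values of F3H and PAP1 rest on few counts in DARK, those of F3H on 16 in bdr1,2,3 and 39 in the wild type and those of PAP1 on 2 in bdr1,2,3 and 10 in the wild type.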

How the results depend on the processing

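Of 5329 alternative values for the 251 results on single members that were followed across alternatives, all called except PAL2 between genotypes at 4 h, 5054 kept their direction and their side of the threshold, 271 lost the call, 4 gained it (PAL2, the 1 without a call) and 0 reversed. Counted over all members, comparisons and 337 alternatives, 104 calls were gained and 329 lost. The counts of members called stayed within 1.5 times under every alternative that kept all libraries, except in the interactions. At 2 h these gave 3 calls, but 1 without the filter and 1 with the replicate block, and at 4 h 2 calls, but 1 with DESeq2's size factors, 1 with DESeq2 (which gave PAP1 no adjusted p) and 1 with the replicate block. Without both HEAT libraries numbered 1, the genotype calls in HEAT numbered 5 against 8. Leaving out 1 library at a time, the calls between genotypes ranged from 8 to 14 in DARK, 8 to 18 after 2 h, 13 to 17 after 4 h, 1 to 11 in COLD and 3 to 8 in HEAT, and those of the interactions from 1 to 3 at 2 h, 0 to 3 at 4 h and 0 to 0 for heat. The calls for light against DARK ranged from 33 to 35 and those for HEAT against COLD from 25 to 34. The causes were not tested. With the replicate block in a fit to the 6 libraries at 4 h alone, where same-numbered libraries deviated together, 22 members were higher and 1 lower in bdr1,2,3. In the comparison of HEAT with COLD in bdr1,2,3 every library correlated best with the one of its own number (0.09, 0.108 and 0.176), which is a hint from the data and not from the design, and the block left 32 calls there. Depth limits members with few or no counts in darkness, such as MYB12, UGT84A1, GL3, PAP1 and the late anthocyanin genes, for which only ratios or bounds can be given.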

Other observations

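The 4 regulators and enzymes that were left untested in an experiment for low counts, other than ANR, were not silent in every condition. PAP2, a MYB activator of late anthocyanin genes, had 2, 1 and 0 counts in HEAT and 7, 6 and 7 counts in COLD in bdr1,2,3, and 0, 1 and 1 counts in HEAT and 18, 1 and 11 counts in COLD in the wild type. MYB11, a relative of MYB12, had 2, 2 and 2 counts in HEAT and 19, 5 and 7 counts in COLD in bdr1,2,3, and 0, 1 and 0 counts in HEAT and 11, 0 and 5 counts in COLD in the wild type. In darkness and light neither exceeded 4 counts in a library. TT8 had 3 counts or fewer in every library of the photomorphogenesis experiment, but 9, 15 and 7 counts in HEAT and 52, 26 and 24 counts in COLD in bdr1,2,3, and 5, 8 and 4 counts in HEAT and 24, 11 and 10 counts in COLD in the wild type. UGT84A1 had 10 counts or fewer in every library of the heat shock experiment. These are raw counts from libraries of unequal depth.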
